A study of Mus musculus with 10 samples.

Results

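De novo lipogenesis is the making of fatty acids from carbohydrate carbon, and 10 of its enzymes and regulators are described here across the epididymal fat of 10 mice. The 10 genes were taken by symbol, Acly, Me1, Acaca, Acacb, Fasn, Elovl6, Scd1, Scd2, Srebf1 and Mlxipl, and all 10 were found among the 23930 genes of the deposited tables. The tissue was epididymal white adipose tissue, a visceral depot, of male C57BL/6 mice aged 18 weeks. All animals had been fed a diet high in sucrose and fat for 8 weeks, so no lean or chow-fed comparison exists. The wild-type group (Srgn+/+) and the Srgn-knockout group (Srgn-/-) held 5 animals each, with 1 library per animal. Srgn encodes serglycin, the granule proteoglycan of mast cells and other blood-derived cells, and the knockout comparison asks what its loss changes in diet-fed fat. Libraries are named by genotype and order, and wild-type 1 and Srgn-knockout 1 share nothing but the number.

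In this pathway, ATP-citrate lyase (Acly) splits cytosolic citrate into acetyl-CoA, and malic enzyme (Me1) supplies NADPH. The acetyl-CoA carboxylases turn acetyl-CoA into malonyl-CoA. The form encoded by Acaca is cytosolic and feeds synthesis, and the form encoded by Acacb sits at mitochondria, where its malonyl-CoA restrains fatty acid entry for oxidation. Fatty acid synthase (Fasn) builds palmitate, Elovl6 lengthens it to stearate, and the stearoyl-CoA desaturases (Scd1, Scd2) introduce the double bond that gives palmitoleate and oleate. Transcription of these enzymes is driven by SREBP-1 (Srebf1), which responds to insulin, and by ChREBP (Mlxipl), which responds to glucose metabolites. White fat of obese rodents is known for low lipogenic gene expression relative to lean fat, a comparison this design does not hold.

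Both regulators are made from more than 1 start site, and the promoters below are shown because the pathway's known control elements lie just upstream of such starts. RefSeq promoter windows (GRCm38.p6) were at hand for 8 of the 10 genes, in 12 windows, and the 250 bases before each start were searched on both strands. Capitals mark the motif, and positions count back from the annotated start. The sterol regulatory element TCACNCCAC stood in 1 window, at -136 of a Mlxipl start (chr5:135106729-135106788, plus strand), and in 1.05% of all windows of this length.
Mlxipl, downstream start: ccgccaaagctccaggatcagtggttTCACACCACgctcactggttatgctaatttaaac
The E-box CACGTG stood at -98 of the other Mlxipl start (chr5:135089765-135089824, plus strand) and in 6.02% of all windows.
Mlxipl, upstream start: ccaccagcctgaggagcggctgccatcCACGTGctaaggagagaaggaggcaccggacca
The NF-Y box CCAAT occurred in 6 of the 12 windows, of 5 of the 8 genes (Acacb, Mlxipl, Me1, Srebf1 and Fasn), and in 33.8% of all windows. It stood 3 times before the Fasn start, at -90, -62 and -59 (chr11:120824590-120824649, minus strand), the last 2 being overlapping matches on opposite strands.
Fasn: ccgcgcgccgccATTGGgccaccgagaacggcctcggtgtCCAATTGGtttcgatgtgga
The carbohydrate response element (ChoRE), a pair of E-box-like sites, had 0 matches in the 12 windows and matched 0.280% of all windows. A match is a match of letters only. The libraries read 1 short amplicon per gene, so transcripts from the separate Mlxipl or Srebf1 starts were not told apart.

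Gene expression was measured by amplicon sequencing, with 7824764 to 10757779 reads per library. Levels below are CPM (reads of a gene over the scaled library total) after scaling by trimmed mean of M-values (TMM) and are compared between libraries within a gene, not between genes. The Srgn amplicon read 74.7 to 133 CPM in wild-type libraries against 0 to 1.31 CPM after knockout, as labelled, although its position relative to the deleted part is not given. All 18 adipocyte markers were tested, and their sum ranged from 55687 to 83277 CPM over wild-type libraries, against 52481 to 76175 CPM over Srgn-knockout ones. Macrophage markers summed to between 1818 and 7381 CPM in the wild-type group, against 1958 to 3921 CPM in the other. None of the 16 was at 0 in every library, but C1qa, at 0 to 0.406 CPM, was read too low to be tested. Epididymis and testis markers were high in wild-type 4, Srgn-knockout 3 and Srgn-knockout 5 (summed level 1186, 7359.5 and 1317 CPM) and were at or below 145 CPM in the others. In whole tissue, fewer adipocytes and less RNA per adipocyte cannot be told apart.

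No lipogenesis gene differed between the 2 genotypes past the threshold. By the edgeR quasi-likelihood test over 12719 genes, 0 of the 10 genes rose and 0 fell in Srgn-knockout fat at an adjusted p under 0.05. Over all genes tested, 0% were called higher and 0.00786% lower, so a count of 0 is what the background gives. At an unadjusted p under 0.05 there was 1 of the 10 genes, Acaca, against 12.8% of all genes. With the DESeq2 Wald test, which called 0.948% of all genes higher and 0.868% lower, and with limma-voom, 0 of the 10 passed after adjustment. The median log2 fold change of Srgn-knockout over wild-type was 0.02 for the 10 genes and -0.0014 for all genes. Fitted values were higher in Srgn-knockout for 9 of the 10 genes, against 49.7% of all genes, but 8 of the 10 fold changes lay within 0.10 of 0 on the log2 scale. The 9 became 5 without Srgn-knockout 3, and 6 without wild-type 1, wild-type 5 or Srgn-knockout 5 or with the macrophage score as covariate. They became 10 without Srgn-knockout 1, with total counts only and with limma-trend. The last 2 settings also moved the median of all genes to 0.05. The 2 groups overlapped for each of the 10 genes, while 2.78% of all genes had groups that did not overlap.

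**Figure D1:**
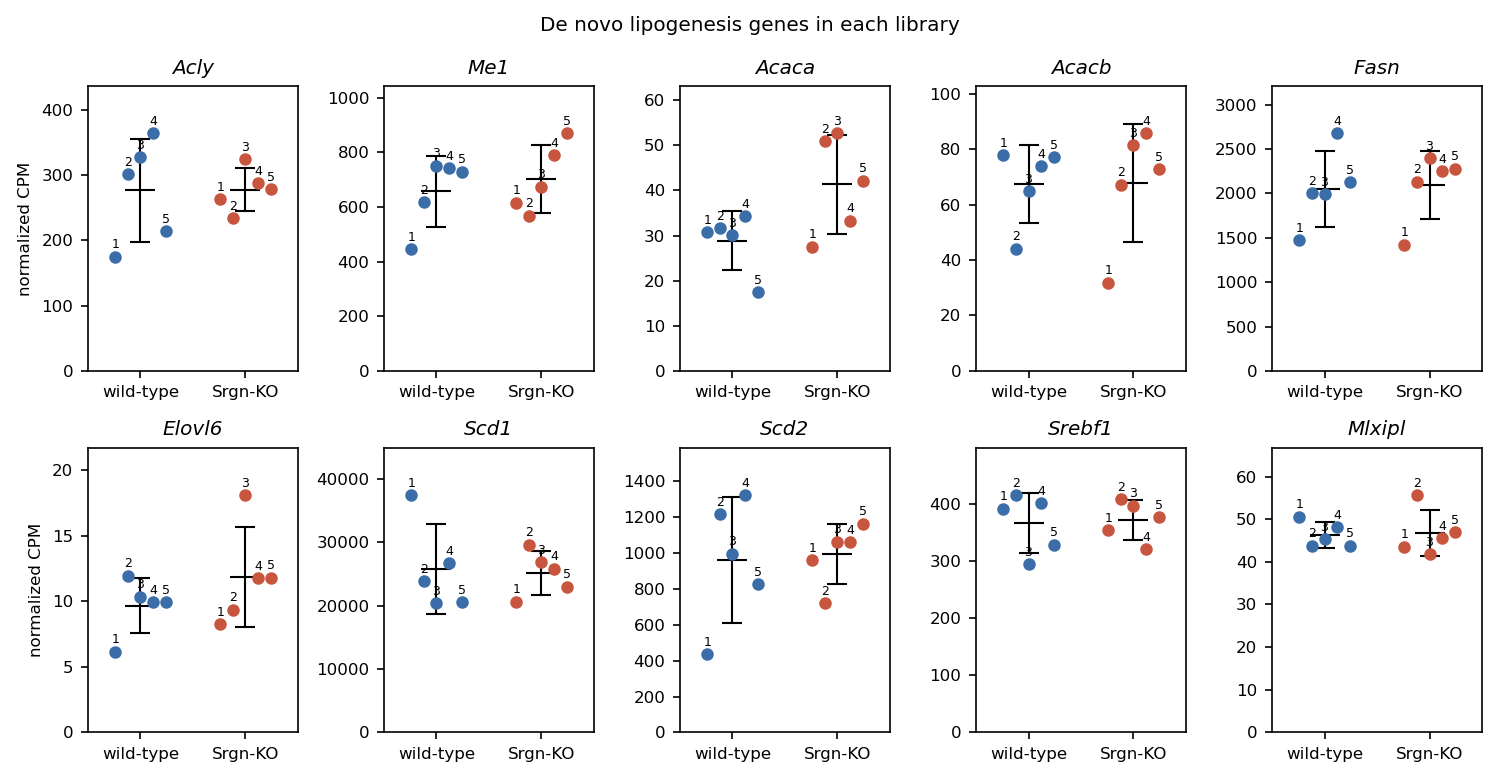
Normalized CPM of the 10 genes (y axis, from 0, a separate scale per gene) in each library, grouped by genotype; numbers name the library within its group, horizontal bars are group means and error bars are SD (n = 5). The groups overlap in every panel, and wild-type 1 is the lowest library for Acly, Me1, Elovl6 and Scd2 and the highest for Scd1.

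Precursor supply showed no genotype difference past the threshold. Acly, which makes cytosolic acetyl-CoA, had 175, 302, 327, 364 and 215 CPM in wild-type 1 to 5. It had 263, 234, 324, 287 and 278 CPM in Srgn-knockout 1 to 5. All Srgn-knockout values lay inside the wild-type range, and the highest and the lowest library were both wild-type. The group means were 276 ± 79.1 and 277 ± 33.0 CPM (SD, n = 5), a log2 fold change of 0.00 with a 95% interval from -0.39 to 0.40. Me1, the cytosolic malic enzyme, had 444, 617, 751, 743 and 729 CPM in wild-type 1 to 5 and 616, 569, 674, 790.5 and 869 CPM in Srgn-knockout 1 to 5. Wild-type 1 was the lowest library, and Srgn-knockout 4 and 5 lay above all wild-type libraries. On the log2 scale Me1 differed by 0.10 (SE 0.162; edgeR adjusted p = 0.826).

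Of the carboxylases, Acaca had the larger difference between the genotypes. Acaca had 30.7, 31.6, 30.2, 34.3 and 17.5 CPM in wild-type 1 to 5. In Srgn-knockout 1 to 5 it had 27.5, 50.9, 52.6, 33.3 and 42.2 CPM. Srgn-knockout 2, 3 and 5 lay above every wild-type library, while Srgn-knockout 1 lay below 4 wild-type libraries. The means were 28.9 ± 6.54 and 41.3 ± 10.9 CPM (SD, n = 5), which is 1.43-fold with a 95% interval from 1.04 to 1.96. The unadjusted p was 0.0303 and the edgeR adjusted p was 0.347, so the difference did not pass over all genes. Its log2 fold change was 0.51, and over the 20 alternatives run it lay between 0.26 and 0.63, with adjusted p between 0.190 and 0.999. The lowest value came with the macrophage score as a covariate. Markers of several cell types lay to one side in Srgn-knockout, none past the edgeR threshold. Fitted values were lower for all 15 tested macrophage markers (median log2 fold change -0.62, 3 or 20% at an unadjusted edgeR p under 0.05). They were also lower for all 12 tested T-cell and B-cell markers (median -0.995). Of these 12, 8 (66.7%) had an unadjusted p under 0.05 and 2 (16.7%) had groups without overlap. They were higher for 9 of 10 endothelial markers (median 0.28, 3 or 30% at an unadjusted p under 0.05). Over all tested genes these shares were 12.8% and 2.78%. Values were also higher for 8 of 9 thermogenic and 4 of 4 smooth muscle markers tested. Of the adipocyte markers, 9 were higher and 9 lower. The part of these cells in the Acaca difference was not tested. The mean z-score of the 15 tested macrophage markers ran from -1.28 to 1.38 in wild-type libraries and from -1.10 to 0.48 in Srgn-knockout ones. The macrophage fit gives the genotype difference of Acaca at an equal score. It does not tell whether the lower macrophage markers follow from genotype. With the adipocyte score as covariate the log2 fold change of Acaca was 0.47 (edgeR adjusted p = 0.221).

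Acacb, the mitochondrial form, had 77.9, 44.1, 64.9, 73.8 and 77.0 CPM in wild-type 1 to 5. It had 31.8, 67.1, 81.4, 85.6 and 72.8 CPM in Srgn-knockout 1 to 5. Srgn-knockout 1 was the lowest library and Srgn-knockout 4 the highest, so the knockout range enclosed the wild-type range. The means were 67.5 ± 14.1 and 67.7 ± 21.4 CPM, a log2 fold change of 0.00 (95% interval -0.54 to 0.54). The ratio of Acacb to Acaca reads within a library needs no scaling between libraries. On the log2 scale (prior count 2) the wild-type mean was 1.23 ± 0.593 and the Srgn-knockout mean 0.67 ± 0.441 (SD, n = 5). The difference of -0.55 did not pass the threshold (two-sided exact permutation p = 0.127, adjusted p = 0.381 over the 3 ratios tested). The smallest p this design allows is 0.00794. Wild-type 5 had the highest ratio, 2.12, and without it the difference was -0.33.

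Fasn, which builds palmitate, had 1475, 2002, 1993, 2676 and 2127 CPM in wild-type 1 to 5. It had 1423, 2132, 2394, 2250.4 and 2280.1 CPM in Srgn-knockout 1 to 5. Wild-type 1 and Srgn-knockout 1 were the low libraries of their groups, and wild-type 4 was the highest. For Fasn the log2 fold change came to 0.03 (SE 0.173; edgeR adjusted p = 0.960), and the 95% interval of the fold ran from 0.786 to 1.32. Elovl6, the elongase that takes palmitate to stearate, was read at low depth, 64 to 152 reads per library. Its levels were 6.16, 11.9, 10.4, 9.95 and 9.95 CPM in wild-type 1 to 5 and 8.23, 9.35, 18.1, 11.7 and 11.8 CPM in Srgn-knockout 1 to 5. Srgn-knockout 3 stood above the rest and wild-type 1 below them. Its difference was 0.29 on the log2 scale (SE 0.231; edgeR adjusted p = 0.617). It was 0.087 without Srgn-knockout 3, 0.16 without wild-type 1 and 0.025 without the 3 libraries high in epididymis RNA.

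Neither desaturase differed past the threshold between genotypes, and wild-type 1 stood at opposite ends for the pair. Scd1, the main stearoyl-CoA desaturase of fat, had 37471, 23855, 20392, 26682 and 20545 CPM in wild-type 1 to 5. It had 20634, 29651, 26839.5, 25838 and 23022 CPM in Srgn-knockout 1 to 5. Wild-type 1 was the highest library, and the other 9 lay between 20392 and 29651 CPM. The log2 fold change was -0.03 (95% interval -0.43 to 0.36), and it was 0.14 without wild-type 1. Scaling by total counts only gave 0.02, a shift shared by the median of all genes, which went from -0.0014 to 0.05. Scd2, an isoform known for high expression in brain, had 435, 1215, 995, 1322 and 827 CPM in wild-type 1 to 5 and 959.9, 719, 1062, 1059.8 and 1162 CPM in Srgn-knockout 1 to 5. Here wild-type 1 was the lowest library. Its fitted difference was 0.05 on the log2 scale (SE 0.254; edgeR adjusted p = 0.952), and it was -0.14 without wild-type 1. The log2 ratio of Scd2 to Scd1 reads was -6.43 in wild-type 1 and between -5.37 and -4.30 in the other 9 libraries. Its group means were -4.81 ± 0.915 and -4.67 ± 0.412. The difference of 0.14 did not pass (exact permutation p = 0.897, adjusted p = 0.897), and without wild-type 1 it was -0.27. The Scd paralogs resemble each other in sequence, and amplicon specificity was not tested.

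The regulators varied least of the 10 genes. Srebf1 had 392, 416, 295, 402 and 329 CPM in wild-type 1 to 5 and 354, 409, 397, 321 and 377 CPM in Srgn-knockout 1 to 5. Every knockout library lay inside the wild-type range. Srebf1 differed by 0.02 on the log2 scale, with a 95% interval from -0.23 to 0.27. Mlxipl had 50.6, 43.8, 45.3, 48.2 and 43.8 CPM in wild-type 1 to 5 and 43.5, 55.7, 41.8, 45.5 and 46.9 CPM in Srgn-knockout 1 to 5. Srgn-knockout 2 was the highest and Srgn-knockout 3 the lowest. The fold was 1.01, and its 95% interval, from 0.872 to 1.16, was the narrowest of the 10. The log2 ratio of Mlxipl to Srebf1 reads averaged -2.97 ± 0.200 for wild-type and -2.99 ± 0.166 for Srgn-knockout animals (difference -0.02; exact permutation p = 0.865, adjusted p = 0.897).

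**Figure D2:**
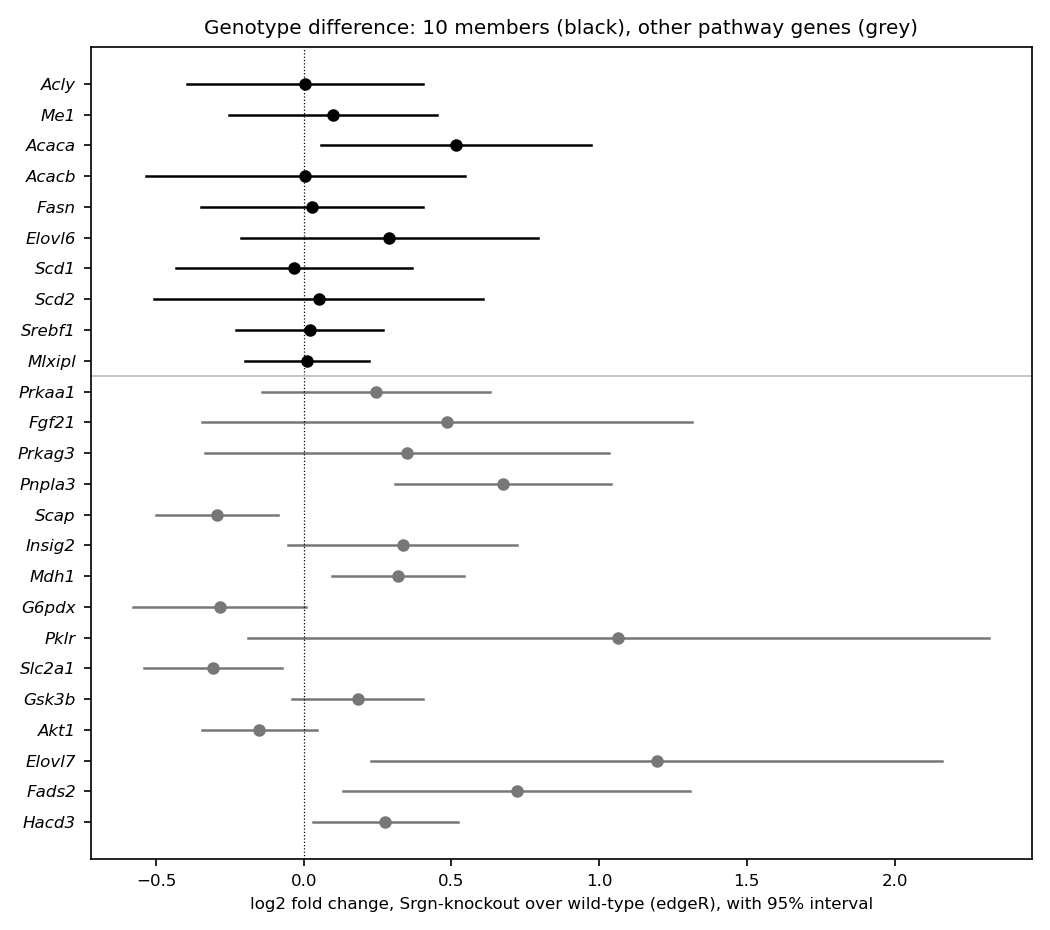
Log2 fold change of Srgn-knockout over wild-type from edgeR (x axis) with its 95% interval for the 10 lipogenesis genes (black) and for the 3 genes with the smallest p in each of 5 related lists (grey); the dotted line is no difference. Of the black intervals, the one for Acaca leaves out 0, before adjustment over all genes.

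Spread within genotypes was lowest for the regulators. The SD of log2 CPM within groups was 0.129 for Mlxipl and 0.180 for Srebf1, at percentiles 10.6 and 27.3 of all tested genes. It was 0.490 for Scd2 and 0.476 for Acacb, at percentiles 80.0 and 79.0. The other enzymes lay between 0.289 for Me1 and 0.392 for Acaca. The median over the 10 genes was 0.321, against 0.263 over all tested genes. Mlxipl, with the least spread, was read 330 to 526 times per library, and Scd2, with the most, at least 4516 times.

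Across libraries the genes did not move as 1 block. Each gene was put on a z-score over the 10 libraries. Srgn-knockout 1 (mean z -0.81), wild-type 1 (-0.60) and wild-type 5 (-0.51) were lowest over the 10 genes, and wild-type 4 (0.61), Srgn-knockout 3 (0.60) and Srgn-knockout 5 (0.41) were highest. These 3 high libraries are also those with the most epididymis RNA, whose part in these levels was not tested. The low libraries were low in different genes. Wild-type 1 held the lowest value for 4 genes, Acly, Scd2, Elovl6 and Me1, and the highest for Scd1. Over all genes, too, wild-type 1 stood apart from the other wild-type libraries (chi-square per degree of freedom 57.8 to 86.7, against 11.1 to 26.2 among those). Among Srgn-knockout libraries this value ran from 12.2 to 55.5, the highest being Srgn-knockout 1 against Srgn-knockout 3. How often wild-type 1 held the lowest or highest value over all genes was not counted. Srgn-knockout 1 held the lowest for Fasn and Acacb, and wild-type 5 for Acaca.

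**Figure D3:**
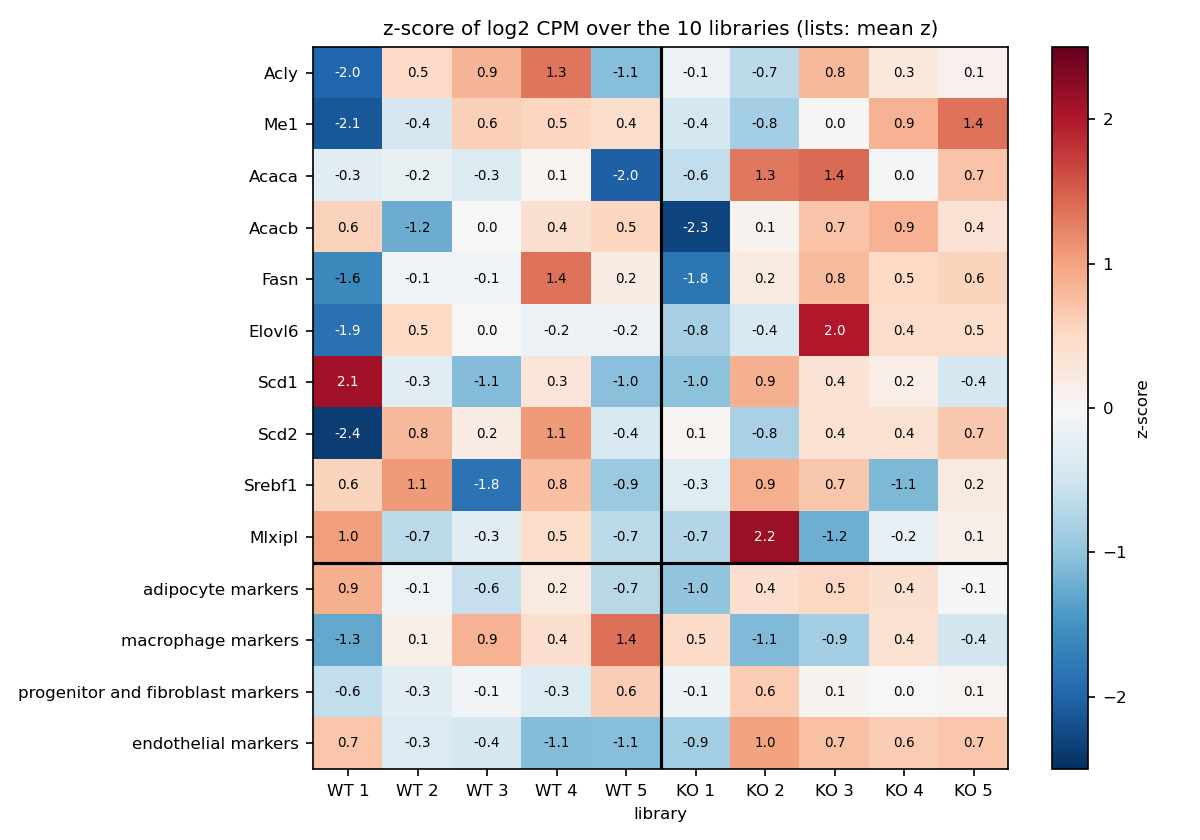
z-score of log2 CPM over the 10 libraries (colour and number) for the 10 genes (rows above the line) and mean z-score of 4 marker lists (rows below it); columns are wild-type (WT) and Srgn-knockout (KO) libraries. In wild-type 1 the blue cells of Acly, Me1, Fasn, Elovl6 and Scd2 stand beside the red cell of Scd1, and its macrophage row is the lowest of the 10 libraries.

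Of the 45 pairs of genes, 1 (2.22%) was correlated past the threshold over the 10 libraries, and 0.397% of all pairs of tested genes had an r of that size. Acly and Scd2 had Pearson's r = 0.90 (permutation p = 0.00051, adjusted p = 0.0229 over 45 pairs) and Spearman's rho = 0.81 (permutation p = 0.00721, adjusted p = 0.324). Leaving out the 2 libraries farthest from the median of Acly gave r = 0.77. Removing the group means gave r = 0.90 (adjusted p = 0.122, with permutation only within groups). Without wild-type 1 it was 0.81, and the pair no longer passed; single removal of wild-type 4 or 5 or of Srgn-knockout 1 or 2 also ended the call. The other 9 pairs among Fasn, Acly, Scd2, Elovl6 and Me1 had r between 0.59 and 0.79 and did not pass, and without wild-type 1 they had r between 0.21 and 0.51. The highest of them was Scd2 with Me1 (r = 0.79, permutation p = 0.0104, adjusted p = 0.216). For this pair r was 0.10 without the 2 libraries farthest from the median of Scd2 and 0.46 without wild-type 1. It was 0.80 within wild-type and 0.85 within Srgn-knockout (n = 5 each). Scd1 and Scd2 had r = -0.62 (permutation p = 0.0624, adjusted p = 0.216), which was 0.00 without wild-type 1. Over all 45 pairs the median r was 0.22, and 62.2% were positive, against a median of -0.00 and 49.9% over all pairs of tested genes. All values share the scaling of their library.

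Scd1 rose with the mean z-score of the adipocyte markers, and no other lipogenesis gene passed that test. Relations of the 10 genes to the mean z-scores of adipocyte, macrophage and progenitor markers were computed, 30 in all, and 2 passed, both of Scd1. For Scd1 and the adipocyte markers the relation was close (r = 0.92, permutation p = 0.00011, adjusted p = 0.0033; rho = 0.92, adjusted p = 0.0135). The relation was 0.94 without the 2 farthest libraries and 0.93 without wild-type 1, and it passed in each of the 13 alternatives run. Of all tested genes, 0.291% had an r with these markers at least as high, the marker genes themselves included. The markers did not all move alike. In wild-type 1, the library highest in Scd1, Adipoq, Plin1 and Cfd were at their highest (1410, 2321 and 10857 CPM). Lep and Gpd1 were at their lowest there (1979 and 596 CPM). With macrophage markers Scd1 had r = -0.81 (permutation p = 0.00324, adjusted p = 0.0486), and -0.63 without the 2 farthest libraries, and 4.29% of all tested genes had an r at least as low. That call was lost on leaving out any 1 library other than wild-type 4 or Srgn-knockout 5, with r from -0.83 to -0.76 and adjusted p from 0.0742 to 0.134 in those 8 cases. It was kept with total counts only (r = -0.90) and without the 3 epididymis libraries (r = -0.92). Scd2 had r = -0.35 with the adipocyte markers (permutation p = 0.331, adjusted p = 0.673), and Fasn had 0.23 (permutation p = 0.522, adjusted p = 0.825). Both values depended on wild-type 1. Without it r was 0.17 for Scd2 and 0.75 for Fasn, and neither passed.
Acaca and the macrophage markers had r = -0.76, short of the threshold (permutation p = 0.00873, adjusted p = 0.0873), and r = -0.95 without wild-type 1, where it passed (permutation, adjusted p = 0.00628). Macrophage and adipocyte RNA are shares of the same library, so a relation to one and a relation to the other are not independent.

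**Figure D4:**
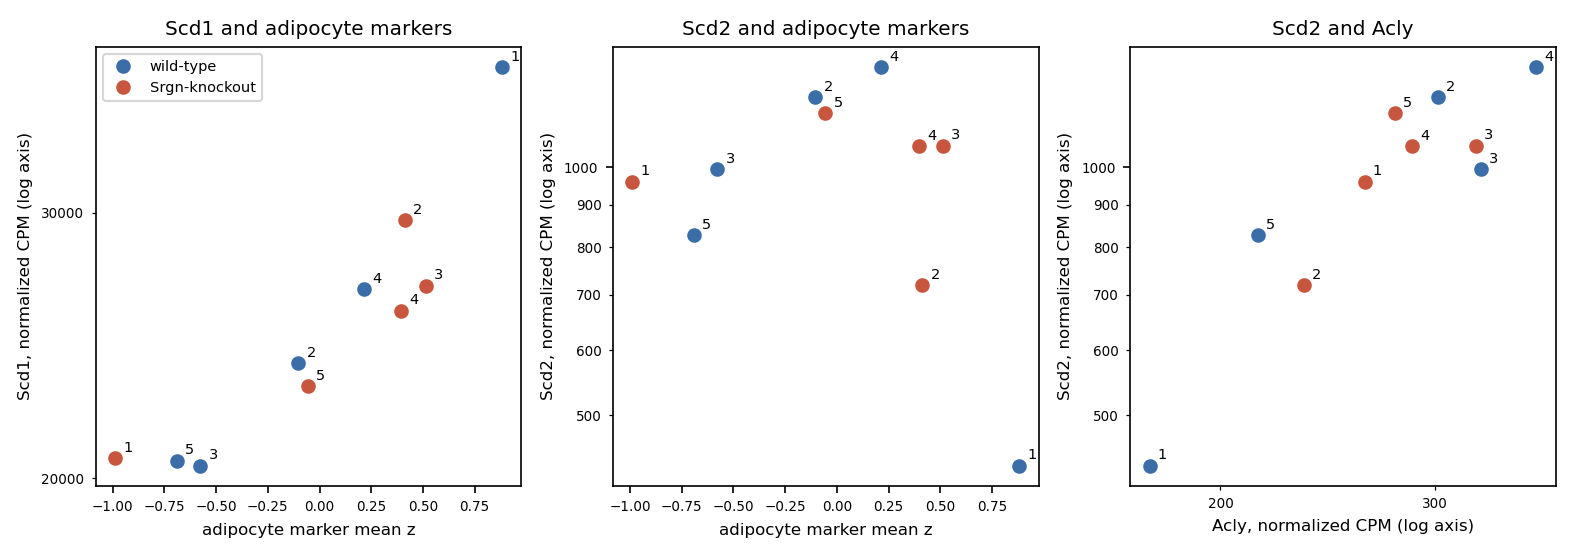
Left and centre, normalized CPM of Scd1 and Scd2 (log axes) against the mean z-score of the adipocyte markers; right, Scd2 against Acly (log axes). Points are libraries, numbered within genotype. Scd1 rises along the adipocyte markers (r = 0.92), and Scd2 has r = -0.35 with them, or 0.17 without wild-type 1. Scd2 rises with Acly (r = 0.90). Wild-type 1 is the highest point for Scd1 and the lowest for Scd2.

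Other genes of the pathway were taken from 5 lists of 81 genes, 76 of them tested. By edgeR 0 rose and 0 fell after adjustment, 39 had higher and 37 lower fitted values, and 7 (9.21%) had an unadjusted p under 0.05, against 12.8% of all genes. Their median log2 fold change was 0.01. The groups did not overlap for 2 of them (2.63%), against 2.78% of all genes.

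Both of these belong to the control of SREBP and its targets, where 0 of 20 tested genes passed in edgeR. Pnpla3, a lipid-droplet protein induced by SREBP-1 and ChREBP, had 499, 417, 405, 489 and 400.4 CPM in wild-type 1 to 5 and 505, 867, 948, 628 and 582 CPM in Srgn-knockout 1 to 5. Every Srgn-knockout library lay above every wild-type library, the closest being 505 and 499 CPM. Pnpla3 differed by 0.67 on the log2 scale (SE 0.169; edgeR adjusted p = 0.193), and the DESeq2 Wald test called it higher (adjusted p = 0.0231), where 0.948% of all genes were called higher. Scap, the escort protein that carries SREBP to the Golgi, had 40.5, 37.0, 34.4, 41.2 and 38.2 CPM in wild-type and 26.7, 34.2, 31.7, 30.9 and 32.8 CPM in Srgn-knockout libraries. All Srgn-knockout values were below the wild-type ones, a log2 difference of -0.29 (SE 0.0949; edgeR adjusted p = 0.258). Insig2, which retains Scap in the endoplasmic reticulum, had 20.6 ± 6.03 and 26.0 ± 2.31 CPM (SD, n = 5).

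Of the 16 tested genes of carbon and NADPH supply, 0 passed in edgeR, 7 had higher and 9 lower fitted values. Mdh1, the cytosolic malate dehydrogenase that precedes Me1, had 307 ± 23.7 and 383 ± 45.4 CPM in wild-type and Srgn-knockout (SD, n = 5; log2 0.32, edgeR adjusted p = 0.255). G6pdx, the entry enzyme of the pentose phosphate pathway, had 680.4 ± 68.1 and 559 ± 106 CPM. Pklr, a pyruvate kinase gene regulated by ChREBP in liver, had 3.42 ± 3.45 and 7.23 ± 3.89 CPM, with an SD as large as the mean in wild-type. None of the 13 tested further elongases, desaturases and chain-lengthening enzymes passed in edgeR. Fads2, the delta-6 desaturase, had 25.1 ± 5.49 and 41.3 ± 17.1 CPM (log2 0.72, edgeR adjusted p = 0.314). Hacd3, a dehydratase of fatty acid elongation, had 54.4 ± 6.70 and 65.9 ± 8.31 CPM, and Elovl7, an elongase, had means of 1.27 and 2.91 CPM (log2 1.19, edgeR adjusted p = 0.309).

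AMP-activated kinase (AMPK) switches off acetyl-CoA carboxylase, and of 12 tested genes of AMPK and other brakes 0 passed in edgeR. Prkaa1, a catalytic subunit of AMPK, had 34.8 ± 10.9 and 41.2 ± 4.59 CPM. The regulatory subunit Prkag3 had 9.15 ± 3.71 and 11.7 ± 3.88 CPM, and the hormone Fgf21 1.82 ± 0.988 and 2.53 ± 0.639 CPM. Insulin and glucose input gave 0 of 15 as well. Slc2a1, the basal glucose transporter, had 32.0 ± 4.09 and 25.8 ± 1.94 CPM (log2 -0.31, edgeR adjusted p = 0.284). The kinases Gsk3b, at 38.4 ± 4.02 and 43.6 ± 4.12 CPM, and Akt1, at 156 ± 15.5 and 140.4 ± 9.02 CPM, did not pass either.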

How the data were processed

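Libraries were made from total RNA with the Ion AmpliSeq mouse transcriptome kit, 1 amplicon per gene, and read on an Ion S5 XL sequencer, per the labels' protocols. The genome build was mm9, per the submitters' processing notes; no source used here names the aligner or counter. The authors deposited raw counts of reads and a table of reads-per-million (RPM) values, which equal the counts scaled by library total to within 0.000591. Counts were analysed in R 4.3.3 with edgeR 4.0.16: filterByExpr (minimum count 10, minimum total 15), TMM factors, robust quasi-likelihood test of genotype over 10 libraries, two-sided, Benjamini-Hochberg adjustment over 12719 genes, threshold 0.05. SE is the fold change over the square root of F. Correlations used log2 CPM (prior count 2) and 100000 permutations for 10 libraries, all orders for fewer. Where group means were removed, all orders within each group were used instead, so those p-values come from another scheme. Ratios used exact permutation.

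Alternatives were DESeq2 1.42.0, limma 3.58.1 (voom with quality weights, and trend on log2(RPM + 1)), other scaling, no filter, 2 covariates and left-out libraries. The code was tested on simulated counts. The 10 genes and all lists were chosen with earlier results of these data known. Named besides these are Srgn, the 3 genes of smallest p in each pathway list, the 8 genes most like the members in pattern and, chosen after its values were seen, Thrsp. Animals are the replicates. No 2 libraries of a group agreed within sampling noise (chi-square per degree of freedom at least 11.1, and 57.8 to 86.7 for wild-type 1 against the other wild-type libraries). Reads carry no molecular identifiers.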

Additional observations from a re-analysis of the deposited data

Results flagged for a closer look

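In all, 3 values stood far from the other 4 of their group, among 26 groups of 5 that were checked; chance marks about 1 in 20 groups. Fasn was 1423 CPM in Srgn-knockout 1, against 2132 to 2394 CPM in the other Srgn-knockout libraries. Acaca was 17.5 CPM in wild-type 5, with the remaining wild-type values at 30.2 to 34.3 CPM. The log2 ratio of Scd2 to Scd1 was -6.43 in wild-type 1, against -4.63 to -4.30 in the other wild-type libraries.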

How the results depend on the processing

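No paired analysis was possible because the labels give no replicate numbers that the groups share. Over the 20 alternatives, 0 of the 10 genes passed in either direction, and their median log2 fold change lay between 0.01 and 0.13. Over all genes, calls higher and lower were 118 and 108 with DESeq2, 2 and 8 with limma-voom, 1 and 5 with the adipocyte score and 17 and 30 with the macrophage score as covariate; with no filter 3 were lower, and leaving out 1 library gave 0 higher and 1 to 2 lower. Pathway genes called higher were 1 with DESeq2. Of 200 recomputed fold changes of the 10 genes, 163 kept their sign and 37 changed it, none past the threshold; Acaca and Elovl6 kept theirs throughout. Signs changed with limma-voom for Fasn (-0.0024), Acly (-0.096), Scd1 (0.050) and Scd2 (-0.050). They changed for Scd1 with limma-trend (0.039) and total counts (0.015), 2 settings that also moved the median of all genes, to 0.048 and 0.050, and with no filter for Acacb (-0.0067) and Acly (-0.0042). With the adipocyte score Acacb was -0.082, and with the macrophage score Acacb was -0.074, Srebf1 -0.082 and Mlxipl -0.049; that score moved Me1 to 0.28, Scd1 to -0.21 and Scd2 to 0.27. Without the 3 epididymis libraries Acacb was -0.10 and the Mlxipl to Srebf1 difference 0.047. Leaving out 1 library gave ranges of -0.070 to 0.14 for Fasn, -0.12 to 0.18 for Acacb, -0.12 to 0.12 for Acly, -0.11 to 0.14 for Scd1 and -0.14 to 0.19 for Scd2. The ranges were -0.014 to 0.17 for Me1, 0.087 to 0.40 for Elovl6, 0.38 to 0.63 for Acaca, -0.049 to 0.069 for Srebf1, -0.060 to 0.048 for Mlxipl, -0.27 to 0.31 for the Scd2 to Scd1 difference and -0.089 to 0.047 for Mlxipl to Srebf1. Correlated pairs were 0 after removing group means (permuted within groups), 0 with Spearman's rho, 0 without the 3 epididymis libraries, and 0 to 1 leaving out 1 library. Marker relations past the threshold were 1 to 4 leaving out 1 library (this alternative was added once the data had been seen). The 4, without wild-type 1, added Acaca with macrophage markers and Acly and Scd2 with progenitor markers. The causes were not tested. Depth limits Elovl6 most, at 64 reads in its lowest library.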

Other observations

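The 8 genes whose pattern over the 10 libraries was most like the mean z-score of the lipogenesis genes, of 9852 ranked, were Tspan6 (r = 0.89), Dennd6b (0.89), Map7 (0.88), Clip2 (0.87), Uqcrq (0.84), Tm7sf2 (0.82), Fam134b (0.82) and Rnase2a (0.81). They are given as a description, with no test, since the highest of many values were taken. Tspan6, a tetraspanin, averaged 20.2 ± 1.65 CPM over wild-type and 22.5 ± 2.94 CPM over Srgn-knockout animals (SD, n = 5). Uqcrq, a subunit of respiratory complex III, had 276 ± 44.6 and 307 ± 29.4 CPM. Tm7sf2, a sterol reductase of cholesterol synthesis, had 11.9 ± 1.83 and 14.2 ± 2.82 CPM. Rnase2a, a member of the eosinophil-associated ribonuclease family whose members are close in sequence, had 9.26 ± 8.75 and 35.7 ± 24.7 CPM (edgeR adjusted p = 0.360).

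Thrsp, a nuclear protein of lipogenic tissues known as Spot 14 and chosen here after its values were seen, varied more than the lipogenesis enzymes. It had 1054, 442, 407, 658 and 502 CPM in wild-type 1 to 5 and 263, 1227, 1449.9, 976 and 798 CPM in Srgn-knockout 1 to 5. Srgn-knockout 1 was the lowest library, and the other 4 Srgn-knockout libraries lay above 4 of the 5 wild-type libraries. Thrsp differed by 0.62 on the log2 scale (SE 0.412, edgeR adjusted p = 0.552).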
